A study of Mus musculus with 33 samples.

Results

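Transcripts of 9 genes of B cells and of immunoglobulin, Ms4a1, Cd79a, Cd79b, Cd22, Fcrla, Blk, Pax5, Ighm and Jchain, were followed across the regions and sorted lymphoid cells of the mouse thymus. The genes were chosen by symbol, and every probe set with one of these symbols alone was taken, which gave 24 of the 45037 probe sets on the array and 9 of the 18193 symbols that have a probe set of their own. RNA from 33 samples of male C57bl6/J mice aged 4 to 6 weeks had been measured on 1 Affymetrix array per sample. The labels name no mutant allele and no treatment. Of these arrays 23 carried microdissected tissue: whole medulla (n = 7), whole cortex (n = 7), and perimedullary, sub-capsular and central cortex (n = 3 for each of these parts). Flow-sorted cells made up the remaining 10: medullary thymocytes, taken as CD3hi and CD45+ (n = 5), and cortical thymocytes, taken as CD3-/lo and CD45+ cells that carried CD90 or CD117 (n = 5). Each mean ± SD below is over the arrays of its group. Dissected tissue and sorted cells went through different RNA kits, and an effect of the kit cannot be told apart from one of the material. The labels call the arrays biological replicates but do not tie them to animals, so arrays may share an animal and p-values may be too small.

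B cells carry a surface antigen receptor made of membrane immunoglobulin, whose first heavy chain is the product of Ighm, and of the signalling chains encoded by Cd79a and Cd79b. CD20 (Ms4a1) and CD22 (Cd22) sit beside the receptor in the membrane, the kinase Blk acts below it, and the transcription factor Pax5 keeps cells in the B lineage, whereas Jchain joins the units of secreted IgM and IgA and marks cells that secrete antibody. The thymus holds a small resident population of B cells, found mostly in the medulla and at its border with the cortex, and immature mouse T cells are known to make transcripts from the heavy chain constant region without a complete immunoglobulin gene.

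The sequences upstream of 3 members are shown because these genes went opposite ways between medulla and cortex: Cd79a and Cd22 were higher in the medulla and Jchain was lower. They are the 250 bases before the start given in a RefSeq promoter table on GRCm38.p6, 5′ to 3′, which holds an entry for 5 of the 9 members (also Fcrla and Pax5). For Cd79a and Jchain this start is the outermost start of the annotated gene. For Cd22 and Fcrla it lies inside the annotated gene, downstream of its outermost start, so these sequences are not those before the whole gene, and base positions count from the start in that table. The Cd79a sequence is chr7:24897247-24897496 on the plus strand, the Cd22 sequence chr7:30879029-30879278 on the minus strand, and the Jchain sequence chr5:88527898-88528147 on the minus strand.
Cd79a: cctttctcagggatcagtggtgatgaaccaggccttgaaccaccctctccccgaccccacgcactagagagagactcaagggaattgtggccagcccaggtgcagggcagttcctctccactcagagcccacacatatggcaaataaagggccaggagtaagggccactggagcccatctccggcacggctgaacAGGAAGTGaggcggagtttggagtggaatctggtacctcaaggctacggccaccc
Cd22: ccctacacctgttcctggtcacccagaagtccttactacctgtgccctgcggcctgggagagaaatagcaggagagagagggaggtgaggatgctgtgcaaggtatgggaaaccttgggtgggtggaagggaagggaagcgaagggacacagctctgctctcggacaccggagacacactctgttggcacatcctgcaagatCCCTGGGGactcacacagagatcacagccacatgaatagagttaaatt
Jchain: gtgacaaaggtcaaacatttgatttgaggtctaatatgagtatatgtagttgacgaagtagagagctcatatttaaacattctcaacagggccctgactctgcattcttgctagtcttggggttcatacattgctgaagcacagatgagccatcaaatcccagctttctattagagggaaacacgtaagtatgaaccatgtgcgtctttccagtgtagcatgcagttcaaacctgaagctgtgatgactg
Capitals mark matches, on either strand, to the octamer ATGCAAAT, the early B cell factor core CCCNNGGG, the ETS core CCGGAA, the longer ETS site AGGAAGTG or the TATA box TATAAA. Cd79a holds AGGAAGTG at bases -55 to -48, a word that 3.14% of 32851 upstream sequences of the same length hold. Cd22 holds CCCNNGGG at bases -48 to -41, which 11.8% of them hold. Fcrla was also called higher in the medulla, and its sequence, not shown, holds none of the words marked in capitals. Those of Jchain and Pax5 hold none either. The E-box CANNTG, left in lower case, occurs in all 5 sequences of members and in 66.2% of all sequences. None of these words is shown here to be bound.

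A probe set was tested when its signal was above the median of its array in at least 3 arrays, which 30045 probe sets did. Of the 24 member probe sets 17 passed and 7 did not: 1 each of Cd22 (1419769_at), Fcrla (1419908_at) and Pax5 (1421765_at), and 4 of the 11 of Ighm. A further 4 probe sets name several genes, Ighm among them, and were left out. Signal is the deposited MAS5 intensity on a linear scale, on which levels can be compared between arrays for 1 probe set but not between probe sets. Fold changes are differences of mean log2(signal + 26.2) with the standard error (SE) of the limma fit. A probe set was called higher or lower at a Benjamini-Hochberg adjusted p below 0.05 over all probe sets and a log2 difference of at least 1 either way. Adjusted p-values below are those of this fit, and the offset makes fold changes of weak signals smaller than the ratios of their means.

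The regions and sorts carried the markers their labels name. Signals of a marker list are given as sums per array, which follow mostly the brightest probe sets of the list. The summed signal of 7 double-positive thymocyte markers was 6263 to 9834 in whole medulla and 93387 to 155300 in whole cortex, and that of 6 medullary epithelial markers 16750 to 19182 in whole medulla and 852.5 to 1659 in whole cortex. That of 5 mature thymocyte markers was 48158 to 65936 in sorted medullary and 960.4 to 1175 in sorted cortical thymocytes. Arrays of the cortical parts stood apart from arrays of whole cortex: 21.5% of all probe sets differed between them, and Cd8b1, a coreceptor chain of cortical thymocytes, averaged 1975 to 2494 in the parts against 29976 ± 7416 in whole cortex. Levels of parts and whole tissue are therefore given side by side below, with that difference in mind. Against whole cortex the mean of the 3 parts was called higher for 2 member probe sets (10.2% of all probe sets), Blk at 1.197 and Ighm 1425385_a_at at 1.18 on the log2 scale, and lower for 2 (11.4%), Ighm 1452535_at at -1.06 and Ighm 1425247_a_at at -1.28. In 13 arrays (whole medulla 1 to 5, whole cortex 1 to 5 and sorted medullary 1 to 3) more than 0.1% of probe sets lay above 42000, and results were also computed within those arrays and within the other 20.

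Between whole medulla and whole cortex Ms4a1, Cd79a, Cd22, Fcrla and Blk were higher in the medulla, Jchain and 2 Ighm probe sets were lower, and Cd79b and Pax5 were not called. Of the 17 member probe sets 7 were called higher, against 15.7% of all probe sets, and 3 lower, against 4.84%. Fewer cells of a type and less RNA per cell cannot be told apart in these bulk samples.

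Ms4a1, which encodes the B cell membrane protein CD20, gave the largest rise of the members. The signal of its brighter probe set (1423226_at) ran from 1110 through a median of 1328 to 2000 in whole medulla, and from 54.5 through 109 to 145 in whole cortex. The groups did not overlap, and the log2 fold change was 3.45 (SE 0.188, adjusted p = 3.3e-17). The second Ms4a1 probe set (1450912_at) averaged 633.9 ± 227.9 in whole medulla and 50.4 ± 34.2 in whole cortex, again without overlap (log2 fold change 3.17, SE 0.29, adjusted p = 2.3e-11).

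Cd79a, the first signalling chain of the B cell receptor, went the same way. Its signal was 213 at the lowest, 551 at the median and 894 at the highest in whole medulla, against 5.47, 26.3 and 142 in whole cortex. No medulla array fell within the cortex range, and the log2 fold change was 2.93 (SE 0.324, adjusted p = 1.8e-09).
Its partner chain Cd79b did not follow it. Cd79b had 477, 619 and 897 in whole medulla and 599, 704 and 875 in whole cortex (lowest, median and highest), the ranges overlapped throughout, and the log2 fold change was -0.14 (SE 0.107, adjusted p = 0.29).

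Cd22, an inhibitory receptor of B cells, had 335, 382 and 492 in whole medulla and 94.3, 160 and 178 in whole cortex (lowest, median and highest; 1419768_at). All medulla arrays were above all cortex arrays, with a log2 difference of 1.30 (SE 0.191, adjusted p = 5.6e-07). The Cd22 probe set that was not tested (1419769_at) averaged 55.7 ± 23.6 in whole medulla and 24.1 ± 19.8 in whole cortex.
Fcrla, an intracellular relative of the Fc receptors made in B cells, was called higher by both tested probe sets. Both were weak. The brighter was above the median of its array in 5 of the 33 arrays, and the other in 8. Few arrays thus carried them through the filter. On the brighter one (1425802_a_at) whole medulla had 94.2, 151 and 198 and whole cortex 9.03, 57.9 and 139, with overlap, and the log2 fold change was 1.12 (SE 0.251, adjusted p = 0.00029). The other one (1419907_s_at) gave 1.61 (SE 0.264, adjusted p = 3.7e-06). The change of the first fell below the threshold of 1 without whole cortex array 1 (0.92), within the arrays without a wide upper tail (0.92) and after quantile normalization (0.81).

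Blk, a SRC family kinase of the B cell receptor pathway, had 270, 312 and 403 in whole medulla and 15.8, 80.1 and 154 in whole cortex (lowest, median and highest). The groups did not overlap, with a log2 difference of 1.86 (SE 0.233, adjusted p = 2.3e-08). Within the arrays without a wide upper tail the change was 0.99 (adjusted p = 0.00098), just short of the threshold, against 2.21 within those with one.
Pax5 was weak. Its tested probe set (1454401_at) had 33.9, 134 and 248 in whole medulla and 11.4, 77.3 and 245 in whole cortex, nearly the same range, and was called in none of the 8 comparisons.

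**Figure D1:**
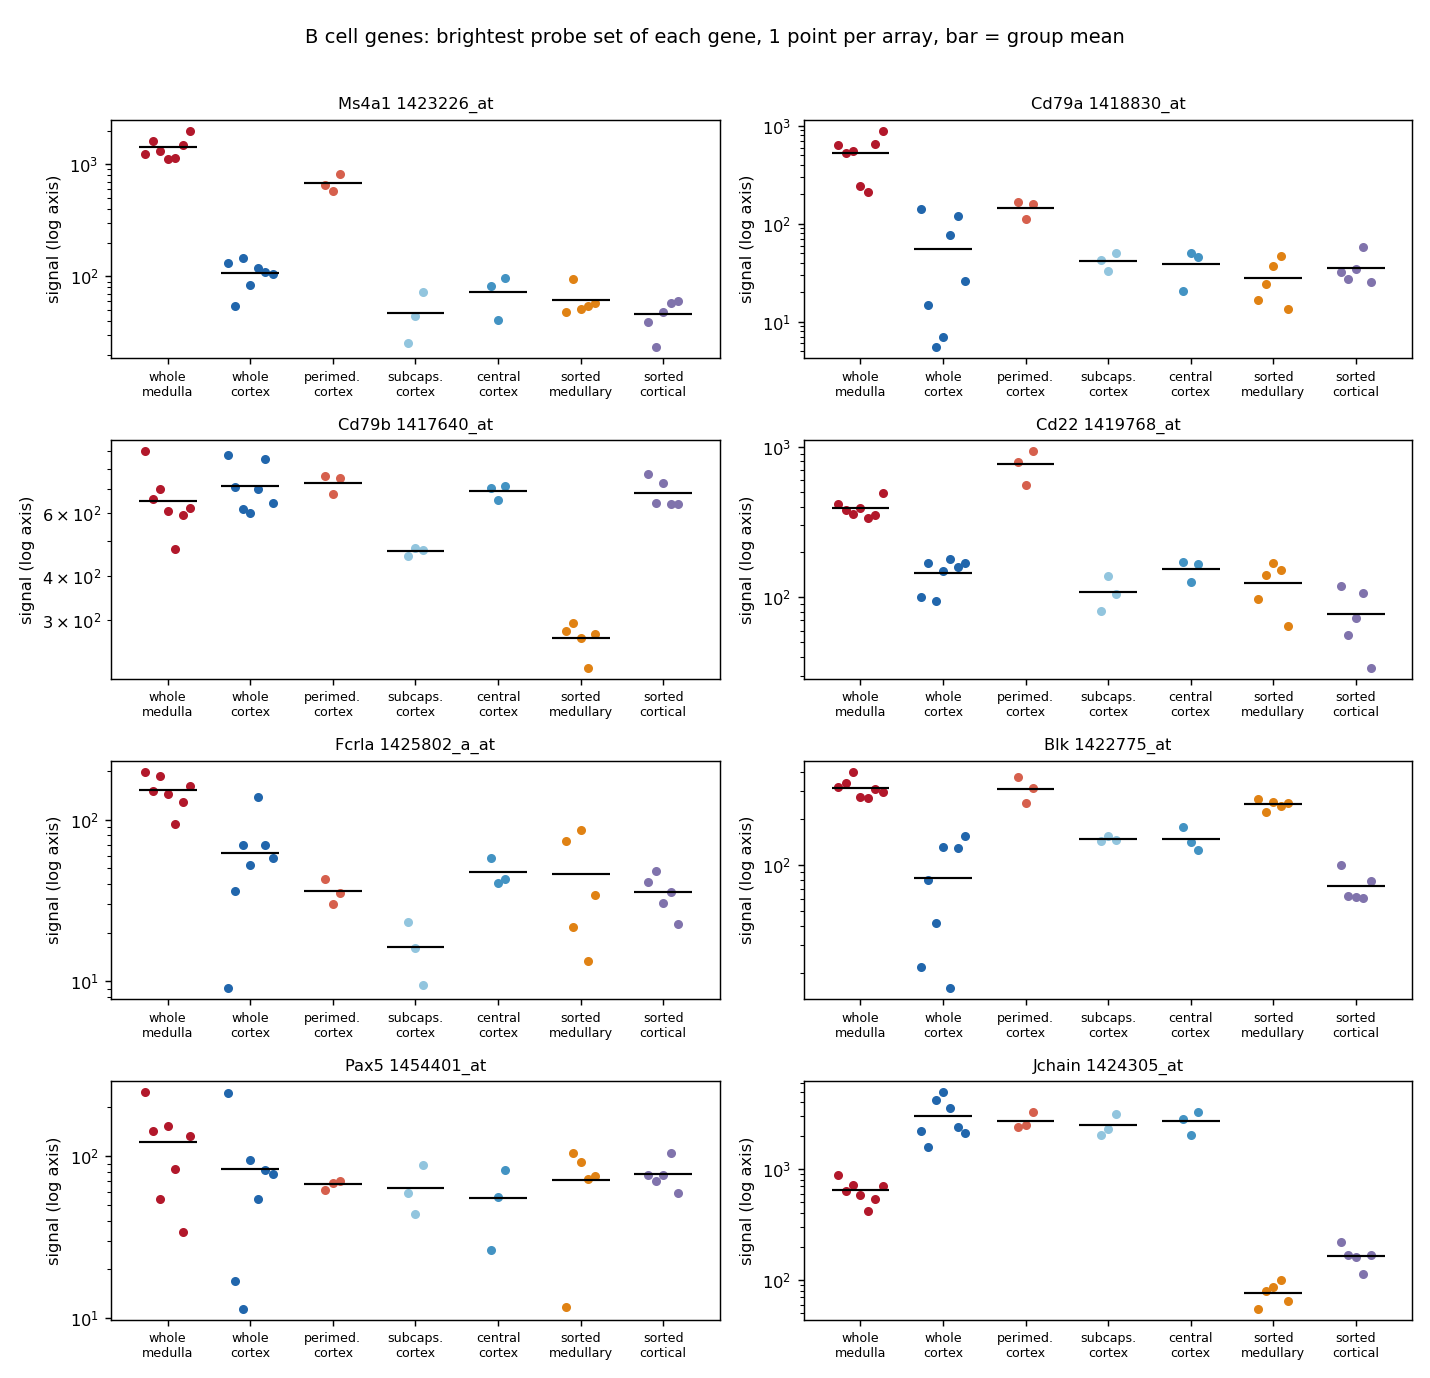
Deposited signal (log axis) of the brightest probe set of the 8 members other than Ighm, 1 point per array, with a bar at the mean of each of the 7 groups. Ms4a1 and Cd79a are high in whole medulla and perimedullary cortex, Cd22 is highest in perimedullary cortex, and Jchain is high in all cortical tissue and low in both sorts.

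Jchain, the joining chain of secreted antibody, was lower in the medulla. Whole medulla had 423, 637 and 890 and whole cortex 1593, 2411 and 4947 (lowest, median and highest), without overlap, and the log2 fold change was -2.11 (SE 0.192, adjusted p = 1.9e-11). The medulla level was still well above that of sorted medullary thymocytes, which had 54.8, 80.1, 86.1, 99.6 and 64.0. Sorted cortical thymocytes had 218, 168, 160, 114 and 168. Jchain was thus higher in tissue than in the cells sorted from the same compartment, by 2.69 on the log2 scale in medulla (SE 0.21, adjusted p = 5.1e-13) and by 3.90 in cortex (SE 0.21, adjusted p = 6.3e-17).

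Ighm, the gene of the IgM heavy chain, gave different answers by probe set. Its strongest probe set (1427351_s_at) had 3122, 3817 and 4620 in whole medulla and 15769, 18170 and 26703 in whole cortex, with a log2 difference of -2.32 (SE 0.11, adjusted p = 6.8e-19). The same probe set was also strong in sorted cells, with 6379, 5956, 4408, 4341 and 5008 in medullary thymocytes and 13402, 15179, 14702, 13618 and 15302 in cortical thymocytes. Neither pair of groups overlapped, and the sorted cells differed by -1.48 (SE 0.13, adjusted p = 1.5e-11).
The second Ighm probe set (1427329_a_at) repeated this order. It had 2033, 2651 and 3397 in whole medulla and 6965, 9002 and 9873 in whole cortex (log2 fold change -1.66, SE 0.102, adjusted p = 8.3e-16). Sorted medullary thymocytes had 2766, 3254, 2666, 2195 and 2202 and sorted cortical thymocytes 7499, 9312, 9666, 8713 and 8989 (-1.76, SE 0.121, adjusted p = 3.2e-14). Tissue and sorted cells of the same compartment differed by 0.08 in medulla (SE 0.112, adjusted p = 0.62) and by -0.01 in cortex (SE 0.112, adjusted p = 0.93) on this probe set. On 1427351_s_at they differed by -0.41 in medulla (SE 0.12, adjusted p = 0.0062), with overlap, and by 0.44 in cortex (SE 0.12, adjusted p = 0.0044), where all tissue arrays were higher. Neither reached the threshold of 1.

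The third Ighm probe set (1425385_a_at) behaved unlike the first 2. It was low in both sorts, at 62.2 ± 17.2 in medullary and 62.5 ± 22.6 in cortical thymocytes, and higher in tissue, at 365.7 ± 65.7 in whole medulla and 451.5 ± 154.4 in whole cortex. Medulla and cortex differed by -0.25 (SE 0.37, adjusted p = 0.61). Tissue exceeded the sorted cells by 2.15 in medulla (SE 0.406, adjusted p = 4.4e-05) and by 2.41 in cortex (SE 0.406, adjusted p = 1.7e-05), without overlap of arrays.
In the cortical parts this probe set was spread widely within each group. It had 1443, 114 and 1133 in perimedullary cortex, 997, 1019 and 1717 in sub-capsular cortex, and 3619, 375 and 2156 in central cortex. Without central cortex array 2 its perimedullary level was called lower than the central level (-2.19, adjusted p = 0.03), and with all arrays it was not (-1.25, SE 0.566, adjusted p = 0.56).

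The other 4 tested Ighm probe sets (1427870_x_at, 1452535_at, 1425247_a_at and 1427756_x_at) were called in none of the 8 comparisons. 1427870_x_at averaged 260.8 ± 62.9 in whole medulla and 328.1 ± 57.9 in whole cortex, and 1 array each of perimedullary (801) and sub-capsular cortex (780) stood far above the others of its group. 1452535_at averaged 113 ± 51.2 and 1425247_a_at 100.6 ± 44.6 in whole medulla, against 153.5 ± 70.7 and 126.4 ± 53.9 in whole cortex. 1427756_x_at averaged 49.4 ± 39.4 in whole medulla and 51.5 ± 52.2 in whole cortex. The 4 that were not tested (1451949_at, 1426196_at, 1425324_x_at and 1427869_at) had group means between 2.43 and 64.9. The sources used here do not say which part of the heavy chain locus each probe set reads.

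**Figure D2:**
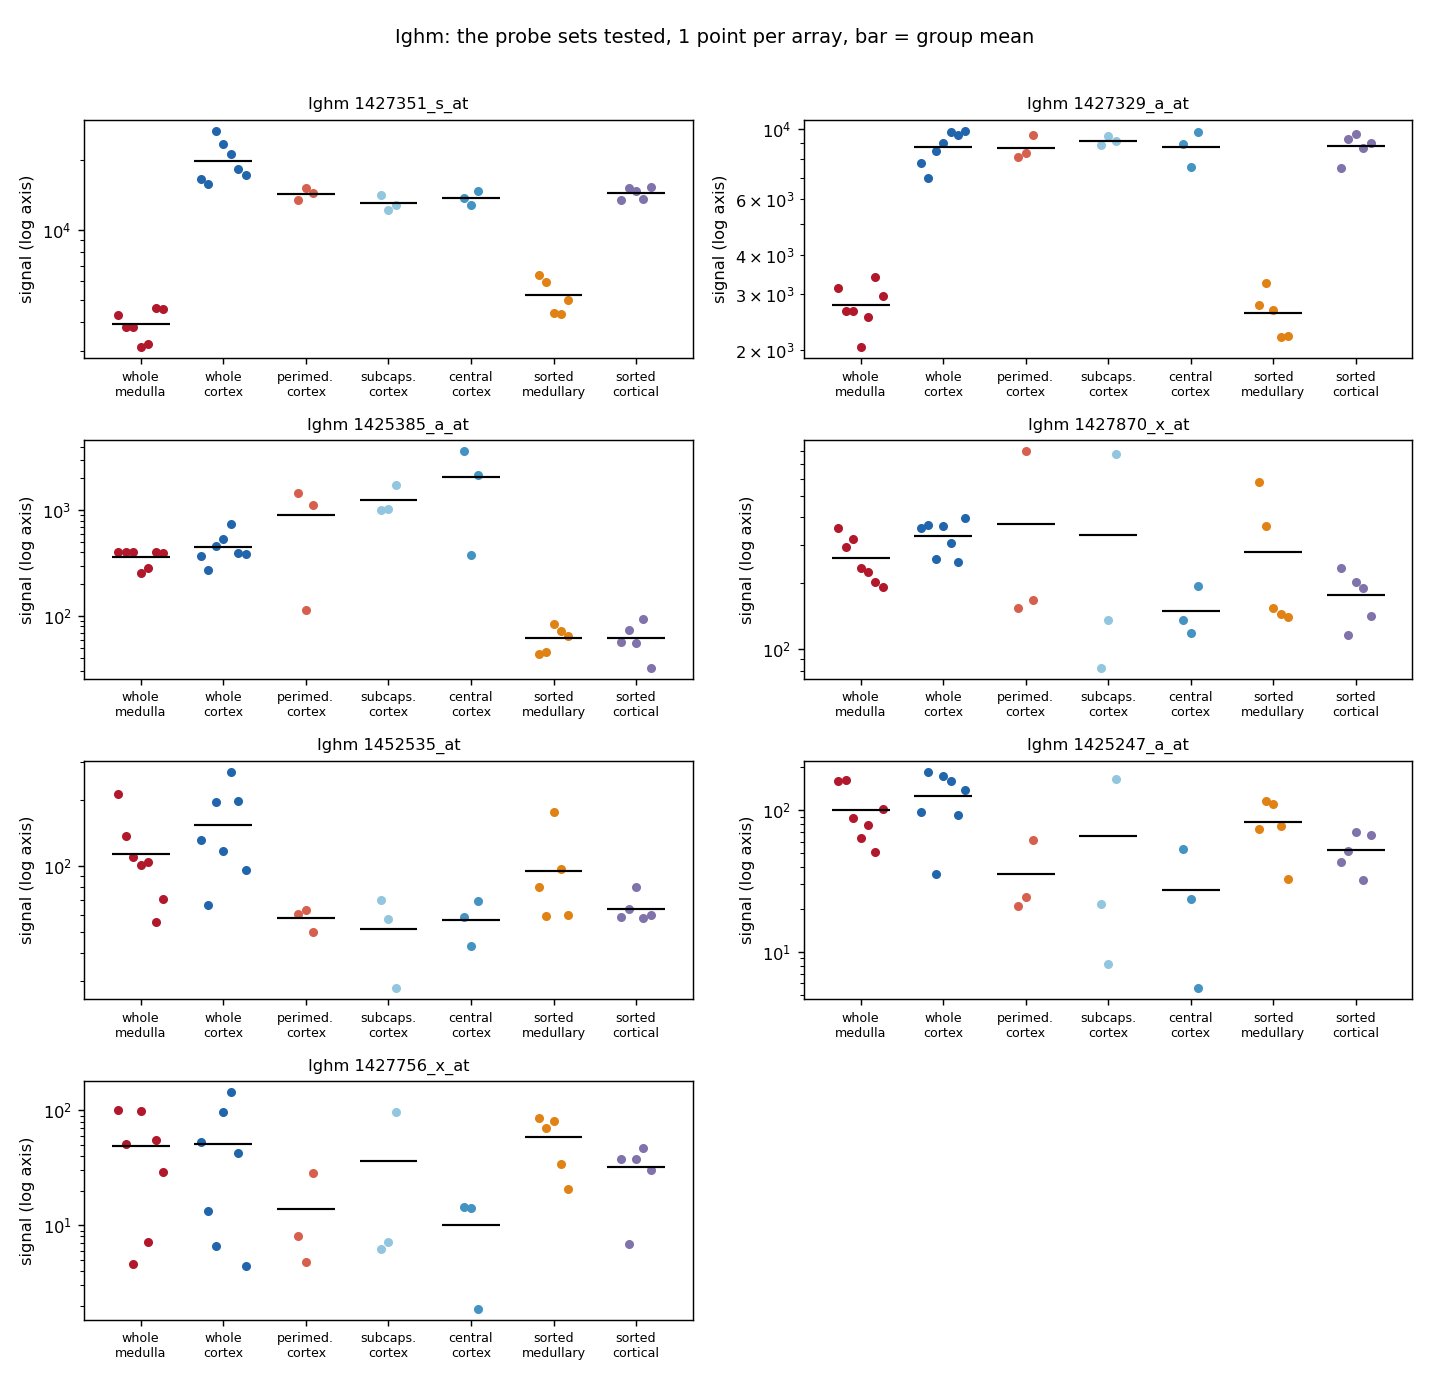
Deposited signal (log axis) of the 7 tested Ighm probe sets, 1 point per array, with a bar at each group mean. 1427351_s_at and 1427329_a_at are low in whole medulla and sorted medullary thymocytes and high in every cortical group, whereas 1425385_a_at is low in both sorts and scattered in the cortical parts.

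The double-positive thymocyte markers moved with the first 2 Ighm probe sets: 6 of 7 were called lower in whole medulla than in whole cortex (5.39% of all genes). In sorted medullary against sorted cortical thymocytes 5 of 7 were called lower (6.28% of all genes), with sums of 14322 to 20451 and 88666 to 94829. The part of these markers in the Ighm result was not tested. Of 5 cortical epithelial markers 3 were called lower in whole medulla than in whole cortex (5.39% of all genes), as Jchain was. Their sums were 5335 to 7134 in whole medulla and 33241 to 41207 in whole cortex. Foxn1 of the same list went the other way, by less than the threshold (0.96, adjusted p = 8.2e-05). In sorted medullary against sorted cortical thymocytes 1 of the 5 was called higher (Prss16, 1.55, against 7.67% of all genes) and none lower (6.28%). Jchain was lower there by less than the threshold and was not called (-0.89, adjusted p = 0.0021). The part of the cortical epithelial markers was not tested either.

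In sorted medullary against sorted cortical thymocytes the order of the first 2 Ighm probe sets was that of tissue, while Ms4a1, Cd79a and Cd22 were not called. The gates required CD3, CD90 or CD117, none of which defines B cells. Of the 17 member probe sets 1 was called higher in medullary than in cortical thymocytes, against 7.04% of all probe sets, and 3 lower, against 5.91%: the 2 Ighm probe sets above and Cd79b.
Blk was the one called higher. It had 270, 220, 254, 242 and 253 in medullary and 99.5, 63.1, 62.2, 61.1 and 79.2 in cortical thymocytes, without overlap, with a log2 difference of 1.48 (SE 0.275, adjusted p = 4.9e-05). Whole medulla and sorted medullary thymocytes differed in Blk by 0.32 (SE 0.255, adjusted p = 0.34), although every tissue array was above every sorted one.
Cd79b had 279, 295, 268, 220 and 273 in medullary and 774, 640, 728, 639 and 638 in cortical thymocytes. All medullary arrays were below all cortical ones (-1.28, SE 0.127, adjusted p = 2.7e-10). The levels of Cd79b in whole cortex and in sorted cortical thymocytes differed by less than their spread (0.05 on the log2 scale, SE 0.117, adjusted p = 0.76).

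Ms4a1 was low in both sorts, with 48.4, 94.8, 51.3, 55.0 and 57.8 in medullary and 39.4, 23.3, 48.6, 58.3 and 60.6 in cortical thymocytes, and the ranges overlapped (0.28, SE 0.223, adjusted p = 0.35). Cd79a had 16.6, 24.4, 37.1, 46.8 and 13.6 in medullary and 32.4, 27.1, 34.9, 57.7 and 25.7 in cortical thymocytes, and the ranges overlapped (-0.21, SE 0.383, adjusted p = 0.72). Cd22 averaged 124.5 ± 42.5 in medullary and 77.6 ± 35.2 in cortical thymocytes (0.56, SE 0.226, adjusted p = 0.055). Jchain was lower in every medullary than in every cortical array, by less than the threshold (-0.89, SE 0.227, adjusted p = 0.0021).

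The difference between tissue and thymocytes was tested as an interaction, the medulla-minus-cortex change of tissue minus that of sorted cells. It was called higher for 5 member probe sets (9.34% of all) and lower for 1 (2.07%). It was 3.16 (SE 0.291, adjusted p = 2.2e-10) for Ms4a1, 3.14 (SE 0.502, adjusted p = 1.1e-05) for Cd79a and 1.14 (SE 0.166, adjusted p = 2.3e-06) for Cd79b, and -1.22 (SE 0.297, adjusted p = 0.0024) for Jchain. For Blk it was 0.38 (SE 0.36, adjusted p = 0.52) and for Ighm 1427329_a_at 0.09 (SE 0.159, adjusted p = 0.75). For Ighm 1427351_s_at it was -0.84 (SE 0.17, adjusted p = 0.00031), a difference below the threshold of 1 in size, with a larger fall in tissue than in sorted cells.

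**Figure D3:**
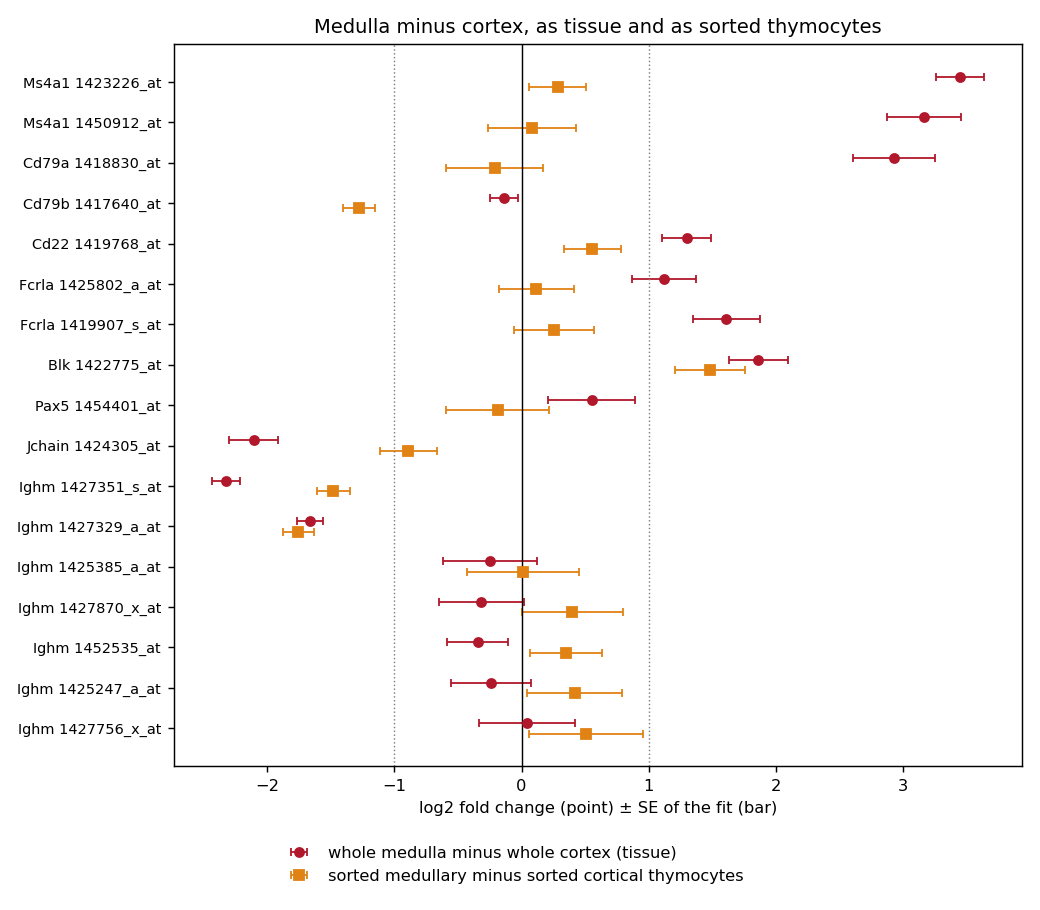
Log2 fold changes (points) with the SE of the fit (bars) of the 17 tested member probe sets, whole medulla minus whole cortex (circles) and sorted medullary minus sorted cortical thymocytes (squares), with dotted lines at the threshold of 1 either way. Ms4a1 and Cd79a lie near 3 in tissue and near 0 in sorted cells, and the first 2 Ighm probe sets lie below -1 in both.

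Tissue was also set against the cells sorted from it, although kit and kind of sample differ together there. In medulla 9 member probe sets were called higher in tissue, against 14.0% of all, and none lower, against 3.75%. Ms4a1 differed by 4.04 (SE 0.206, adjusted p = 4.8e-18), Cd79a by 3.27 (SE 0.355, adjusted p = 1.6e-09), Cd22 by 1.51 (SE 0.209, adjusted p = 2.7e-07) and Cd79b by 1.19 (SE 0.117, adjusted p = 1.6e-10), all without overlap. In cortex 2 were called higher, against 7.23% of all, and none lower, against 5.20%: Jchain and Ighm 1425385_a_at. Without whole cortex array 2 this count was 4. Ms4a1 differed by 0.88 in cortex (SE 0.206, adjusted p = 0.001), short of the threshold.
Macrophage markers were called higher in tissue than in the sorted cells in both compartments. In medulla these were 4 of 5 (19.5% of all genes) and in cortex 5 of 5 (9.63%). Their sums were 6716 to 8013 and 3784 to 4859 in tissue and 272.8 to 447.1 and 201.9 to 282.4 in the sorts. Jchain was also called higher in tissue in both compartments, whereas Ms4a1, Cd79a, Cd22 and Cd79b were called so in medulla alone. The part of the macrophage markers was not tested.

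Within the cortex Ms4a1 and Cd22 were higher next to the medulla than in both other parts, and the other members were not called against central cortex. In perimedullary against central cortex 3 member probe sets were called higher, against 0.912% of all, and none lower, against 0.0233%. In perimedullary against sub-capsular cortex 4 were called higher, against 2.99%, and none lower, against 1.19%. Between sub-capsular and central cortex none of the 17 was called, against 0.559% of all higher and 0.393% lower.
Ms4a1 had 661, 583 and 814 in perimedullary, 25.4, 44.6 and 72.8 in sub-capsular and 81.4, 41.2 and 96.8 in central cortex. Every perimedullary array was above every array of the other parts, by 2.87 against central (SE 0.287, adjusted p = 1.6e-08) and by 3.31 against sub-capsular cortex (SE 0.287, adjusted p = 4.3e-10). The second Ms4a1 probe set gave 2.86 (adjusted p = 7.6e-05) and 3.51 (adjusted p = 8e-07).
Cd22 had 796, 558 and 935 in perimedullary, 80.3, 138 and 104 in sub-capsular and 172, 126 and 165 in central cortex, again without overlap (2.10, SE 0.292, adjusted p = 1.1e-05 against central; 2.55, SE 0.292, adjusted p = 1.4e-07 against sub-capsular cortex). On 1419768_at its perimedullary mean of 762.7 ± 190.6 was the highest of the 7 groups. It was above whole medulla at 389.4 ± 52.3 (0.90 on the log2 scale, adjusted p = 0.0023). The mean of the 3 parts was also above whole cortex on this probe set, by less than the threshold (0.65, adjusted p = 0.0024). The untested 1419769_at was weak and had its highest mean in whole medulla, at 55.7 ± 23.6, against 12.0 ± 5.9 in perimedullary cortex.

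Cd79a had 165, 113 and 158 in perimedullary, 42.8, 32.95 and 50.6 in sub-capsular and 20.8, 49.8 and 45.8 in central cortex. The perimedullary arrays were above the others, but the change was not called against central (1.42, SE 0.495, adjusted p = 0.25) or sub-capsular cortex (1.32, SE 0.495, adjusted p = 0.081). In a fit of the compared groups alone both were called. Blk averaged 312.2 ± 60.7 in perimedullary, 147.3 ± 6.3 in sub-capsular and 147.1 ± 25.4 in central cortex, without overlap and without a call (0.96, adjusted p = 0.32 and 0.95, adjusted p = 0.081). Fcrla 1419907_s_at was called higher in perimedullary than in sub-capsular cortex (1.34, SE 0.404, adjusted p = 0.025).
Jchain overlapped between the parts, with 2410, 2516 and 3308 in perimedullary, 2016, 2313 and 3162 in sub-capsular and 2851, 2020 and 3275 in central cortex. Cd79b had 765, 678 and 753 in perimedullary and 454, 478 and 472 in sub-capsular cortex, without overlap but by less than the threshold (0.62, SE 0.163, adjusted p = 0.01). Ighm 1427351_s_at and 1427329_a_at differed between pairs of parts by at most 0.13 on the log2 scale.
Mature thymocyte and dendritic cell markers moved with the perimedullary rise. All 5 mature thymocyte markers were called higher in perimedullary than in central cortex (sums 11479 to 12706 and 2951 to 3684). So were 3 of 7 conventional dendritic cell markers (sums 2783 to 3278 and 1092 to 1552), against 1.21% of all genes for either list. Their part was not tested.

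**Figure D4:**
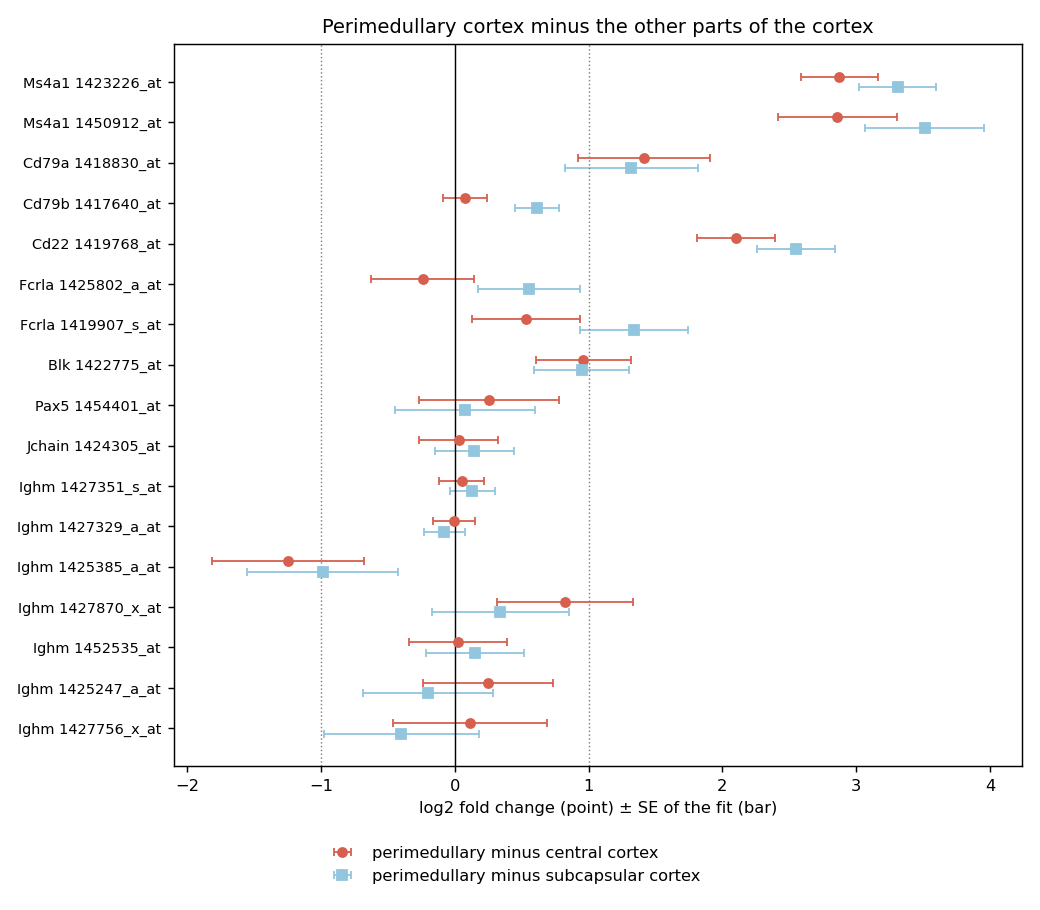
Log2 fold changes (points) with the SE of the fit (bars) of the 17 tested member probe sets, perimedullary minus central cortex (circles) and perimedullary minus sub-capsular cortex (squares), with dotted lines at the threshold of 1 either way. Both Ms4a1 probe sets and Cd22 lie above 2 in both, and Jchain and the first 2 Ighm probe sets lie near 0.

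Set in order over all 7 groups, Ms4a1 ran from whole medulla through perimedullary cortex to whole cortex, central cortex, sorted medullary thymocytes, sub-capsular cortex and sorted cortical thymocytes. Whole medulla and perimedullary cortex differed (1.004, adjusted p = 7e-04), as did perimedullary and whole cortex (2.44, adjusted p = 2.6e-10). No neighbours among the last 5 differed beyond their spread. On the second Ms4a1 probe set (1450912_at) whole medulla and perimedullary cortex again came first but did not differ beyond their spread (0.75, adjusted p = 0.09). In Jchain whole cortex and its 3 parts did not differ from their neighbours in the order, while sub-capsular cortex was above whole medulla (1.92, adjusted p = 4.1e-08), whole medulla above sorted cortical thymocytes (1.80, adjusted p = 4e-09) and these above sorted medullary thymocytes (0.89, adjusted p = 0.0021).

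Other genes of B cells, from a list of 26 of which 24 were tested, were mostly higher in the medulla. In whole medulla against whole cortex 17 of 24 were called higher and 1 lower, with a median log2 fold change of 1.63, against 18.7% higher, 5.39% lower and a median of 0.11 over all 13463 genes. Spib, a transcription factor of B cells and plasmacytoid dendritic cells, rose by 3.83 (SE 0.181, adjusted p = 6.8e-19), and Cd40, the receptor for T cell help that medullary epithelium and dendritic cells also carry, by 3.12 (SE 0.192, adjusted p = 8.5e-16). H2-Ob, a regulator of class II peptide loading, rose by 3.02 (SE 0.152, adjusted p = 3.9e-18) and the low affinity IgE receptor Fcer2a by 2.88 (SE 0.277, adjusted p = 7.4e-11). The gene called lower was Ralgps2 (-1.03, adjusted p = 9e-13).
Within the cortex 7 of 24 were called higher in perimedullary than in central cortex (1.21% of all genes) and 12 of 24 higher than in sub-capsular cortex (2.88% of all genes), and none lower in either. H2-Ob changed most in both, by 1.85 and 2.56, and Fcgr2b, the inhibitory IgG receptor, was higher by 1.77 and 2.07. In sorted medullary against sorted cortical thymocytes 6 of 24 were called higher (7.67% of all genes), led by Cd72, a B cell coreceptor, at 2.56 (SE 0.189, adjusted p = 1.8e-13), and none lower. Of 7 conventional dendritic cell markers 7 were called higher in whole medulla than in whole cortex (18.7% of all genes). They summed to 24572 to 43445 in whole medulla and to 923.7 to 1266 in whole cortex. The sum mostly follows its brightest probe set, Fscn1 (mean 22655 in whole medulla), whereas Xcr1 averaged 215.1 there. The part of these markers in the values of the B cell genes was not tested.

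Of 13 tested genes of B cell receptor signalling 4 were called higher and 1 lower in whole medulla than in whole cortex, against 18.7% and 5.39% of all genes, and the 1 lower is near that share. The adaptor Blnk rose by 3.53 (SE 0.167, adjusted p = 7.3e-19), the kinase Btk by 1.72, Malt1 by 1.33 and Plcg2 by 1.14, and Prkcb fell by 1.45. Syk, the kinase that docks on Cd79a and Cd79b, averaged 652.8 ± 94.4 in whole medulla and 626.8 ± 80.0 in whole cortex (log2 fold change 0.06, adjusted p = 0.78), and was lower in sorted medullary than in sorted cortical thymocytes (90.8 ± 39.4 and 612.4 ± 34.1, -2.54, adjusted p = 2e-14).
Of 12 plasma cell genes 6 were called higher in whole medulla than in whole cortex (18.7% of all genes) and none lower (5.39%). They were Irf4 (3.36), which mature T cells also make, Sdc1 (2.16), which epithelium also makes, Pou2af1 (2.11), also on the B cell list, Ell2 (2.03), the receptor Tnfrsf17 (1.60) and the secretory cofactor Mzb1 (1.06). Jchain was lower in whole medulla, as were 3 probe sets of Igha given below. The part of plasma cells in these values was not tested. Of 7 tested precursor B cell genes 1 was called higher (Il7r, also a gene of mature thymocytes), near the share of 18.7% over all genes, and none lower, while Vpreb1 and Igll1, the surrogate light chain genes, gave -0.72 (adjusted p = 0.055) and -0.19 (adjusted p = 0.72).
Of 8 tested plasmacytoid dendritic cell markers 3 were called higher and 1 lower in whole medulla, against 18.7% and 5.39% of all genes. Pacsin1 (2.08), Irf8 (2.06) and Bst2 (1.94) were higher and Ccr9 (-1.79) was lower. Siglech was weak and not called (81.5 ± 39.6 in whole medulla and 98.1 ± 37.7 in whole cortex). It was above the median of its array in 0 of 7 whole medulla and 2 of 7 whole cortex arrays. The part of these cells was not tested. Of 3 tested markers of gamma delta and innate-like T cells, 1 was called higher in whole medulla than in whole cortex (Zbtb16, 2.64; 18.7% of all genes) and 3 higher in sorted medullary than in sorted cortical thymocytes (7.67% of all genes).

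The other immunoglobulin loci had 32 probe sets with 1 symbol, of which 14 were tested, and they stood higher in tissue than in sorted cells. In medulla 10 of 14 were called higher than in sorted medullary thymocytes, against 14.0% of all probe sets, and none lower, against 3.75%. In cortex 11 of 14 were called higher, against 7.23%, and none lower, against 5.20%. The probe set annotated to the kappa segment Igkv8-30 (1452463_x_at) averaged 3840 ± 2199 in whole medulla and 52.4 ± 42.7 in sorted medullary thymocytes, a log2 difference of 5.62 (SE 0.383, adjusted p = 1.3e-14). Variable segments are alike in sequence, so a probe set may read several of them.
Between whole medulla and whole cortex 3 of the 14 were called lower (4.84% of all probe sets), all annotated to Igha, the IgA heavy chain. Iglv1 (1427292_at) was the 1 called higher, a share below the 15.7% of all probe sets. Igha 1421653_a_at averaged 1687 ± 689 in whole medulla and 4474 ± 1449 in whole cortex (-1.45, SE 0.25, adjusted p = 8.5e-06), and 9004 ± 1416 in perimedullary, 5552 ± 779 in sub-capsular and 8984 ± 624 in central cortex. Sorted medullary thymocytes had 104.1 ± 70.1 and sorted cortical thymocytes 377.7 ± 102.8. Between the cortical parts none of the 14 was called.

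Genes with a like pattern were ranked by Pearson r of log2(signal + 26.2) over the 33 arrays, which fall into the 7 groups and share the difference between tissue and sorted cells, so that r is a description. Ms4a1 was most like Kcnq3 (0.956), Ccl12, Fgd5, Ifi204 and Vwf (0.937), and Cd79a most like Csn2 (0.929), a milk protein gene, followed by Olfm1, Tmem98, Pkia and Csn1s2a. Cd22 was most like Pla2g2d (0.911), Fcmr (0.894), Rasgrp3, P2rx4 and Siglecg (0.849), of which Fcmr and Siglecg are on the list of B cell genes above. Cd79b was most like Sema7a (0.896) and Blk most like Nsmf (0.901), and for Pax5 the highest r was 0.685.
Jchain was most like Enpep (0.967), Diras2 (0.965), Cxcl12 (0.962), Igha (0.96) and Mtcl1 (0.957). Ighm 1427351_s_at was most like Dntt (0.977), the terminal transferase of double-positive thymocytes, and the proliferation genes Dck, Top2a, Rrm2 and Mcm7. Ighm 1427329_a_at was most like Endou (0.979), Arpp21, Bub1b, Rag2 (0.962) and Ccnb2.

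Among the 7 arrays of whole medulla the 36 pairs of members were correlated on the log2 scale, each by its brightest probe set, with exact 2-sided permutation tests adjusted over the pairs. Of these 4 had an adjusted p below 0.05 for Pearson r: Fcrla with Jchain (r = 0.977, rho = 1.0, exact p = 0.0002 and 0.0004, adjusted 0.0071 and 0.014), Cd79b with Jchain (r = 0.944, rho = 0.964, exact p = 0.0048 and 0.0028, adjusted 0.043 and 0.033), Cd79b with Fcrla (r = 0.92, rho = 0.964, exact p = 0.004 and 0.0028, adjusted 0.043 and 0.033) and Cd79a with Ighm 1427351_s_at (r = 0.946, rho = 0.929, exact p = 0.0026 and 0.0067, adjusted 0.043 and 0.061). Without the 2 arrays farthest from the median of the first gene, r was 0.938, 0.736, 0.866 and 0.802. Ms4a1 and Cd79a gave r = 0.806 and rho = 0.714 (exact p = 0.033 and 0.088, adjusted 0.24 and 0.33). Of the 7 arrays 5 had the wide upper tail and 2 did not. Correlations were not computed within either set, so the part of that difference in them was not tested.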

How the data were processed

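RNA of 33 mouse thymus samples had been measured on Affymetrix arrays. The authors deposited 1 table of linear signal intensity per probe set, made with MAS5 in Affymetrix Expression Console 1.0 per the submitters' processing notes; scaling target and annotation build are not given in the sources used here. Each array was 1 sample, grouped by its title. Probe sets were named from the platform annotation: 34945 had 1 symbol, 932 several and 9160 none. Intensities were used as log2(signal + 26.2), an offset equal to the 25th percentile of signal in the median array. Probe sets above the array median in at least 3 arrays (30045) were fitted with limma 3.58.1 in R 4.3.3, as 7 group means with 26 residual degrees of freedom and a trended prior, after the script was tested on simulated data. Exact permutation tests were computed over all pairings in Python 3.11.15. Array medians ran from 71.9 to 163, and array number limits precision. All whole medulla arrays (128 to 163) had higher medians than all other arrays (at most 118). The main fit applied no further normalization between arrays. The highest correlation between 2 arrays was 0.9848, so none was taken for a repeat.

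Every member probe set was accounted for, Ighm one by one, other members by the probe set with the highest mean signal. From each gene list up to 4 called genes with the largest change were named, by the brightest probe set. Ralgps2, Plcg2, Tnfrsf17, Mzb1, Vpreb1, Igll1 and Siglech were named after their values were seen, as was Cd8b1. Members, lists and the wide upper tail were chosen with earlier results of these data known. Replicate numbers were not treated as pairing samples, since same-numbered arrays correlated at -0.131 to 0.253. Alternatives were a smaller offset (6.55), quantile normalization, no filter, a stricter filter, only the compared groups, array weights, a replicate block, arrays with or without a wide upper tail, and leaving out each array.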

Additional observations from a re-analysis of the deposited data

Results flagged for a closer look

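Of 60 sets of 5 to 7 arrays tested for a value far from its group, 3 held one, and chance gives about 1 in 20. Ms4a1 (1423226_at) was 94.76 in sorted medullary array 2, against 48.41 to 57.84 in the others. Pax5 (1454401_at) was 11.8 in sorted medullary array 1, against 72.5 to 105. Ighm 1452535_at was 80.28 in sorted cortical array 3, against 57.97 to 63.7.

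For 6 member probe sets the change between medulla and cortex differed between tissue and sorted thymocytes by the interaction term of limma. It was 3.16 for Ms4a1 1423226_at (3.45 in tissue and 0.28 in sorted cells, adjusted p = 2.2e-10) and 3.08 for Ms4a1 1450912_at (3.17 and 0.08, adjusted p = 2.4e-06). It was 3.14 for Cd79a (2.93 and -0.21, adjusted p = 1.1e-05), 1.35 for Fcrla 1419907_s_at (1.61 and 0.26, adjusted p = 0.015) and 1.14 for Cd79b (-0.14 and -1.28, adjusted p = 2.3e-06). It was -1.22 for Jchain (-2.11 and -0.89, adjusted p = 0.0024).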

How the results depend on the processing

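Of 120 results for single member probe sets 29 were called, and 25 of these kept the call under every alternative run; none reversed. The other 4 were Fcrla 1425802_a_at between whole medulla and whole cortex (0.81 after quantile normalization, 0.92 without a wide upper tail and 0.92 without whole cortex array 1) and between whole medulla and sorted medullary thymocytes (0.96 after quantile normalization, 1.12 with adjusted p = 0.066 within the wide tail), Blk between whole medulla and whole cortex (0.99 without a wide tail), and the Cd79b interaction (0.98 after quantile normalization). The cause was not tested. The stricter filter tested 10 of the 17 member probe sets, among 17153 in all, and those it left out could not be called. Of these 10, 4 were called higher in whole medulla than in whole cortex, in place of 7 of 17. In sorted medullary against sorted cortical thymocytes 0 of the 10 were called higher, in place of 1 of 17. With quantile normalization 3 interactions were called higher, in place of 5. Between whole cortex and sorted cortical thymocytes 5 in place of 2 were called higher with an offset of 6.55, and 2 to 4 with 1 array left out (4 without whole cortex array 2). Between perimedullary and central cortex 0 to 1 were called lower with 1 array left out (Ighm 1425385_a_at without central cortex array 2). Cd79a in perimedullary against central and sub-capsular cortex was called in a fit of the compared groups (1.42, adjusted p = 0.015 and 1.32, adjusted p = 0.0014, limma). Quantile normalization turned the median over all probe sets between whole medulla and whole cortex to -0.09, against 0.1, with 3705 called higher and 2346 lower, against 4717 and 1455; between whole medulla and sorted medullary thymocytes it gave 3510 higher and 2217 lower, against 4221 and 1127. With the replicate number as a block, 7 member probe sets were called higher and 3 lower in whole medulla than in whole cortex, as without it, and 3 in place of 2 higher in whole cortex than in sorted cortical thymocytes; 3 of 7 numbers in whole medulla and whole cortex correlated best with their own. Within-tail values were not run for groups with no such arrays.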
